A study of Homo sapiens with 6 samples.

Results

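Keratins and keratin-associated proteins were examined in Huh7 cells, a human hepatocellular carcinoma line, after 24 h with carfilzomib (3 libraries) or with its solvent DMSO (3 libraries). Carfilzomib is a proteasome inhibitor. Both groups were unmodified wild-type Huh7 cells grown in 6-well plates, and no source used here states the dose. The labels do not tell whether libraries within a group are separate cultures, and the spread that the p-values rest on may therefore be technical. The members are all rows of the gene table whose symbol starts with KRT and a digit or with KRTAP, without pseudogene and antisense symbols. The rule found 25 members, 15 keratins and 10 keratin-associated proteins, among 19021 rows. RefSeq lists 149 protein-coding symbols that meet the same rule, and the 124 with no row in the table were not analysed here.

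Keratins are the intermediate filament proteins of epithelial cells. A filament needs a type I and a type II keratin, which pair with each other, and hepatocytes make a single main pair, KRT8 (type II) with KRT18 (type I). Bile duct cells add KRT7 and KRT19, and stratified epithelia and hair use other pairs. Keratin-associated proteins are small proteins of the hair shaft that fill the matrix between hair keratin filaments. KRT8 and KRT18 are also main constituents of Mallory-Denk bodies, the hepatocyte inclusions of damaged liver, which hold ubiquitin and p62 as well.

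The library totals behind the values were 39205256, 38386581 and 39098662 reads for carfilzomib replicates 1 to 3 and 39292337, 39601098 and 39651170 reads for DMSO replicates 1 to 3. Values are in FPKM, fragment numbers scaled by gene length and library total, so levels can be compared between genes. On the second principal component (1.22% of the variance) DMSO replicate 1 stood away from its group, and its KRT8, KRT18, KRT19 and KRT10 levels were the highest of the DMSO group. Of the 10 hepatocyte markers checked, all were detected and all 10 fell with carfilzomib by limma, as did 44.9% of all tested genes, their summed level lying at 4745 to 4850 FPKM with carfilzomib and at 10582 to 10824 FPKM with DMSO. Of 12 markers of stratified epithelium, 6 had a row and 6 did not, among them involucrin, loricrin and filaggrin, and the summed level was 18.04 to 19.4 FPKM with carfilzomib and 7.84 to 9.09 FPKM with DMSO. Most of this rise lay in SFN (mean 12.4 FPKM with carfilzomib, 5.42 with DMSO) and TP63 (3.67 and 0.352). For DSG3, DSC3, TGM1 and TGM3 the groups overlapped. In bulk libraries, a change in the share of cells that express a gene and a change in RNA per cell cannot be told apart.

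Type I keratins were higher with carfilzomib, while their main partner KRT8 differed by less than the spread of the libraries on the deposited scale and was called slightly higher under 2 other scalings. KRT18, KRT19, KRT23 and KRT10 rose 1.41 to 2.75 times. Some hair and skin genes that had at most 1 read over the 3 DMSO libraries, such as KRT34 and KRTAP2-3, had reads in all 3 carfilzomib libraries. Keratin-associated protein genes of chromosome 21 were lower with carfilzomib or overlapped between the groups. Of the 8 members that averaged 1 FPKM or more in the 6 libraries, limma (moderated linear model on log2(FPKM + 1), Benjamini-Hochberg adjustment over 11153 genes) called 6 higher and 1 lower with carfilzomib, and 1 did not pass. In the same fit 36.7% of all genes were called higher, 44.9% lower and 81.6% in either direction, and in 37.4% all carfilzomib values lay above all DMSO values and in 45.4% below. Of these 8 members, 3 reached the mean only through the group in which they are high, so their difference was built into the filter. Among the 5 with at least 1 FPKM in both groups, 4 were higher and the median log2 difference was 0.62, against -0.07 over all tested genes.

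The major pair came first in level. KRT8, the type II keratin of hepatocytes, had 1327, 1364 and 1352 FPKM in the carfilzomib libraries, against 1371, 1316 and 1290 FPKM in the DMSO libraries. The groups overlapped, and the highest value was in DMSO replicate 1. The log2 difference was 0.02 (SE 0.0312, adjusted p = 0.494 by limma), with a 95% interval of -0.05 to 0.09. This depended on the scaling: with median-of-ratios scaling the difference was 0.12 (adjusted p = 0.0161 by limma) and with rescaling to TPM it was 0.06 (adjusted p = 0.0297 by limma), both called higher, over a range of adjusted p of 0.0161 to 0.916 in 17 alternatives.

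KRT18, the type I partner of KRT8, had 1541, 1589 and 1520 FPKM with carfilzomib, against 1039, 990 and 989 FPKM with DMSO. All carfilzomib libraries lay above all DMSO libraries. The mean was 1550 ± 35.6 FPKM with carfilzomib and 1006 ± 28.4 FPKM with DMSO (SD, n = 3 each), a ratio of 1.54, and limma put the log2 difference at 0.62 (SE 0.0318, adjusted p = 4.22e-08). By level, KRT18 ranked 20th of all rows in each carfilzomib library and 27th or 28th in the DMSO libraries, whereas KRT8 ranked 23rd with carfilzomib and 23rd or 24th with DMSO. KRT8 and KRT18 lie next to each other on chromosome 12, their annotated spans overlap in RefSeq, and both have many processed pseudogene copies. No source used here states whether counting used strand or how it treated reads shared by such copies, and both levels carry this limit.

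KRT19, a type I keratin without the usual tail domain that marks bile duct cells in liver, had 159, 164 and 160.3 FPKM with carfilzomib, against 85.0, 84.5 and 80.5 FPKM with DMSO. The libraries within a group were close together and the groups did not overlap. The ratio was 1.93 and the log2 difference 0.94 (SE 0.0306, adjusted p = 1.91e-09 by limma). KRT19 also gained on KRT18, with a KRT19 to KRT18 ratio of 0.103, 0.103 and 0.105 with carfilzomib and 0.0818, 0.0853 and 0.0814 with DMSO. The other bile duct genes checked did not move together: of 8 markers, SPP1, osteopontin, rose, while 4 fell, EPCAM, SOX9 and PROM1 among them, and 3 had too low a level to test. KRT7, the type II keratin of bile ducts, had 1, 7 and 5 reads with carfilzomib and 0, 1 and 0 reads with DMSO.

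KRT23, a type I keratin described as stress-inducible in diseased liver, had 9.80, 10.6 and 9.46 FPKM with carfilzomib, against 3.55, 3.71 and 3.61 FPKM with DMSO. Each carfilzomib library was more than 2 times above every DMSO library. The ratio of the means was 2.75 and the log2 difference 1.24 (SE 0.0527, adjusted p = 1.13e-08 by limma). KRT10, the type I keratin of suprabasal epidermis, had 17.7, 18.3 and 17.3 FPKM with carfilzomib and 13.6, 12.6 and 11.6 FPKM with DMSO. These groups did not overlap either, and the log2 difference was 0.47 (SE 0.0551, adjusted p = 2.36e-05 by limma). The antisense gene KRT10-AS1, which overlaps KRT10 and is not a member, had 4.29, 4.33 and 5.65 FPKM with carfilzomib and 4.28, 4.78 and 4.48 FPKM with DMSO, with overlapping groups.

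**Figure D1:**
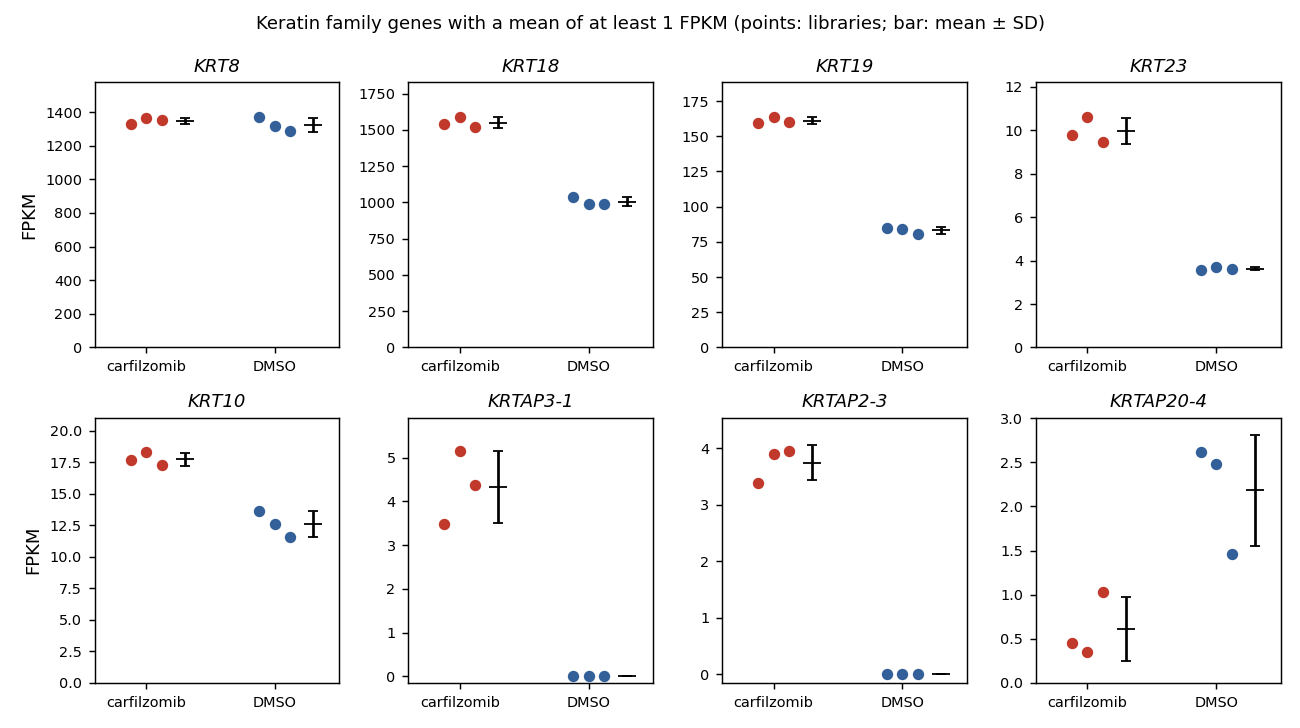
FPKM of the 8 keratin family genes with a mean of at least 1 FPKM, in 3 carfilzomib and 3 DMSO libraries (points, with mean ± SD beside them; each panel has its own linear axis). The groups overlap for KRT8 and are apart for the other 7 genes, with KRTAP20-4 lower and the others higher with carfilzomib.

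The balance of the 2 keratin types changed with these genes. Summed over members, type I keratins had 1729, 1784 and 1709 FPKM with carfilzomib, against 1141, 1091 and 1085 FPKM with DMSO. Type II keratins, almost all of it KRT8, summed to 1327, 1364 and 1352 FPKM with carfilzomib and 1371, 1316 and 1290 FPKM with DMSO. The type I over type II ratio was therefore above 1 in every carfilzomib library (1.30, 1.31 and 1.26) and below 1 in every DMSO library (0.832, 0.829 and 0.841). The difference of the mean ratios was 0.46, and the exact two-sided permutation p over the 20 label assignments was 0.1, the smallest that 3 against 3 libraries allow. For the type II sum alone the exact permutation p was 0.5. On summed reads, without division by gene length, the ratio was 0.983, 0.987 and 0.954 with carfilzomib, against 0.628, 0.625 and 0.635 with DMSO, so the groups stayed apart but the carfilzomib ratios did not exceed 1. Because the ratio is formed within a library, scaling whole libraries does not change it. Reads of all members made up 0.530 ± 0.00854% of the library with carfilzomib and 0.430 ± 0.0129% with DMSO (SD, n = 3 each; exact permutation p = 0.1), and KRT8, KRT18 and KRT19 held 98.6% and 99.1% of them on average.

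**Figure D2:**
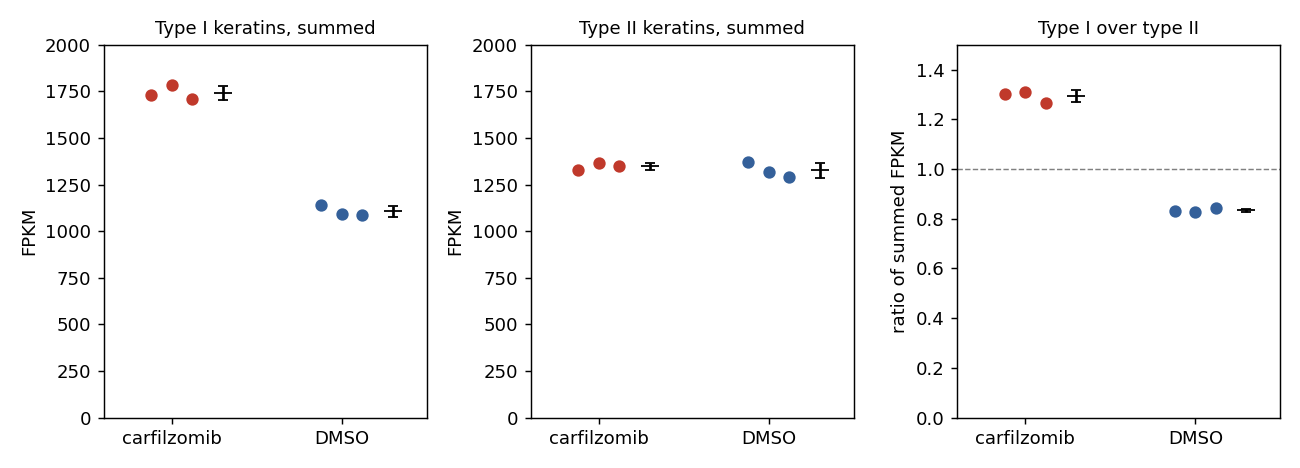
Summed FPKM of type I and of type II keratins, and their ratio, in each library (points, with mean ± SD beside them). Type I sums are higher with carfilzomib, type II sums overlap, and the ratio lies at 1.26 to 1.31 with carfilzomib and 0.829 to 0.841 with DMSO, on either side of 1 (dashed line).

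Beyond the liver-cell keratins, members with no read in DMSO appeared. Each carfilzomib library had reads in 23 of the 25 members, against 13, 16 and 12 members in the DMSO libraries. Over the group, 8 members had 0 reads in every DMSO library, 7 of them on chromosome 17 and 1 on chromosome 12, and 0 members lacked reads in every carfilzomib library. Of these 8, KRT38, KRT81, KRTAP1-5 and KRTAP2-4 had only 24, 7, 16 and 10 reads over the 6 libraries. The shares of all rows that behave in these ways were not counted, so these counts of members have no background beside them. Of 16 members with at least 30 reads over the 6 libraries, 6 (37.5%) had at most 1 read over the DMSO libraries. Across the whole table this was so for 0.646% of the 16410 rows with at least 30 reads, and the reverse, at most 1 read over the carfilzomib libraries, for 0.0914%. The 6 members, like the rows counted beside them, reached 30 reads only through 1 group, so their direction was built into this cutoff.

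The clearest of these were KRTAP3-1 and KRTAP2-3, high-sulfur proteins of the hair matrix. KRTAP3-1 had 83, 120 and 104 reads with carfilzomib and 0 reads in all 3 DMSO libraries. Its level was 3.48, 5.14 and 4.37 FPKM with carfilzomib. With the DMSO group set to a floor of 3 reads the ratio was 104. The 95% exact counting interval, which also covers error in the carfilzomib reads, starts lower, at 84.0. KRTAP2-3 had 116, 131 and 135 reads with carfilzomib and 0 in all 3 DMSO libraries. That made 3.38, 3.90 and 3.95 FPKM with carfilzomib, and a ratio of 129 against the same floor, with an exact counting interval from 105. Both genes passed the level filter through the carfilzomib libraries alone, so their limma p-values are not given. KRTAP2-4, its neighbour, had 0, 5 and 5 reads with carfilzomib and 0 in all DMSO libraries. The transcripts of KRTAP2-3 and KRTAP2-4 are 99.5% identical over 428 aligned bases in GENCODE, so how reads divide between them is uncertain.

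KRT34 and KRT37, type I hair keratins, showed the same pattern at lower levels. KRT34 had 40, 64 and 53 reads with carfilzomib and 0 in all 3 DMSO libraries. Its ratio against the floor was 53.2, with an exact counting interval from 42.7. KRT37 had 51, 47 and 53 reads with carfilzomib and 0, 0 and 1 with DMSO, with a ratio of 153, and the 95% exact counting interval runs over 27.1 to 6099. Counting intervals and floors cover counting error only, and reads here carry no molecular identifiers. KRT38, a hair keratin whose transcript is 94.7% identical to that of KRT37 over 1277 aligned bases, had 10, 0 and 14 reads with carfilzomib and 0 with DMSO. Its carfilzomib replicate 2 had no read, so the groups overlapped.

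The 250 bases before the annotated start of the 4 genes with the most such reads are shown, and all 4 lie in 1 cluster on chromosome 17. Their shared direction follows from how they were picked. Another stretch, of the chromosome 21 gene KRTAP20-4, which was lower, is given beside them. Sequences are RefSeq's on GRCh38.p14, 5′ to 3′ on the gene's strand, and capitals mark matches to TATAAA, the TATA box core, on either strand. KRTAP3-1 is chr17:41009129-41009378, KRTAP2-3 chr17:41060115-41060364, KRT34 chr17:41382307-41382556 and KRT37 chr17:41424586-41424835, all on the minus strand, and KRTAP20-4 is chr21:30620377-30620626 on the plus strand.
KRTAP3-1: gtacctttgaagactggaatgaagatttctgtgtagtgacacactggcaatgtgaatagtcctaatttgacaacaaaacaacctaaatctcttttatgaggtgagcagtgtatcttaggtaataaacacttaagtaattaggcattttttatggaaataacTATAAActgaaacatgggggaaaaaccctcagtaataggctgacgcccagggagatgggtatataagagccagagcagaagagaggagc
KRTAP2-3: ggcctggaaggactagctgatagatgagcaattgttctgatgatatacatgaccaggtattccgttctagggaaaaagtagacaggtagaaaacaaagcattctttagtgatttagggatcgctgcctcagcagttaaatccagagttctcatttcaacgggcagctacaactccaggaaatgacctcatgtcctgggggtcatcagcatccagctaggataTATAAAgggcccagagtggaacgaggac
KRT34: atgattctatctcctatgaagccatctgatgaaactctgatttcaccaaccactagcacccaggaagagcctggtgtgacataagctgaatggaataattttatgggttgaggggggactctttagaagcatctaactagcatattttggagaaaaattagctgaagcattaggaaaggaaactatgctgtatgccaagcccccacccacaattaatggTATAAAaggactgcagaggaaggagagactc
KRT37: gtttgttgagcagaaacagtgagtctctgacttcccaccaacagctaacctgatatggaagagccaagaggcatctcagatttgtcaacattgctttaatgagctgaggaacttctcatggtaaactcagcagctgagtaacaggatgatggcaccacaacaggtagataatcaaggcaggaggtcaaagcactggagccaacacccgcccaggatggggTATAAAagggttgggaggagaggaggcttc
KRTAP20-4: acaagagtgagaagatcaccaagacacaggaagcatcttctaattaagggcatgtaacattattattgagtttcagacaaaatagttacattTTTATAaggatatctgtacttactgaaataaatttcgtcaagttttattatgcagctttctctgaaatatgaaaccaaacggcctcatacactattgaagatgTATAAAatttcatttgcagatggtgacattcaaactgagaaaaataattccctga
The match ended 22 to 25 bases before the start in KRTAP2-3, KRT34 and KRT37 and 83 bases before it in KRTAP3-1. In KRTAP20-4 the match on the gene's strand ended 49 bases before the start. A match also ended 22 bases before the start in KRTAP19-1 and 24 bases before it in KRTAP20-2. The groups overlapped for KRTAP19-1 and KRTAP20-2, so the close match was not particular to higher genes. KRTAP3-1 also holds the letters tatataag nearer its start, which the exact search for TATAAA did not match. The distance of its marked match therefore does not show that it lacks a TATA box nearer the start. Of the 14 members with a promoter entry, 12 held TATAAA on either strand, against 11.1% of 27305 promoters of the same length, and the 12 included members that were higher, lower and overlapping between the groups. TGANTCA, the AP-1 site, was in 1 of the 14 (KRTAP19-5), against 6.60% of all promoters. The heat shock element cores GAANNTTC and TTCNNGAA were in 0 and 1 (KRTAP20-2) of the 14, against 5.85% and 6.72% of all promoters. These counts describe the letters in this window only, and only for the 14 members. KRT18, KRT19, KRT23, KRT15, KRT17, KRT80, KRT7, KRT14, KRT81, KRT222 and KRTAP19-2 had no promoter entry and were not searched.

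Other skin and epithelial keratins were higher at low read numbers. KRT80, a type II keratin of many epithelia, had 62, 43 and 37 reads with carfilzomib and 0, 1 and 0 with DMSO, a ratio of 144 (95% exact counting interval 25.5 to 5737). KRT17, a type I keratin of wounded and proliferating epidermis, had 12, 10 and 16 reads with carfilzomib and 0 in all DMSO libraries. Its ratio against the floor was 12.9, with an exact counting interval from 9.97. KRT15, a type I keratin of basal epidermis and the hair bulge, had 35, 42 and 44 reads with carfilzomib and 5, 6 and 9 with DMSO, a ratio of 6.15 (95% exact counting interval 3.81 to 10.4). KRT15 was thus present in every DMSO library, unlike the 2 genes before it. KRT14, KRT16 and KRT17 transcripts are alike (KRT14 and KRT17 89.5% identical over 996 aligned bases), so shared reads make KRT14 and KRT17 uncertain.

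Few members were lower. KRT222, a keratin-like gene at the edge of the chromosome 17 cluster, had 35, 26 and 19 reads with carfilzomib, against 107, 85 and 96 with DMSO. Its groups were far apart, with a ratio of 0.282 (95% exact counting interval 0.217 to 0.363). KRTAP20-4, a glycine-tyrosine-rich protein gene of chromosome 21, had 0.455, 0.349 and 1.03 FPKM with carfilzomib and 2.61, 2.48 and 1.46 FPKM with DMSO. These levels rest on 4, 3 and 9 reads with carfilzomib and 23, 22 and 13 with DMSO, a ratio of 0.280 (95% exact counting interval 0.150 to 0.494). The gene passed the level filter through the DMSO libraries alone, so its limma p-value is not given. KRTAP20-2, which lies near it, had 1, 9 and 1 reads with carfilzomib and 9, 12 and 15 with DMSO, and carfilzomib replicate 2 reached the lowest DMSO library. KRTAP19-5 had 10, 4 and 6 reads with carfilzomib and 11, 14 and 12 with DMSO, a narrow gap.

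Of the 17 members under 1 FPKM on average, 8 had at least 30 reads and 9 had fewer. Among the 8 (KRT15, KRT17, KRT34, KRT37, KRT80, KRT222, KRTAP19-5 and KRTAP20-2), 5 had all carfilzomib values above all DMSO values and 2 had all below. Rows of the same kind did so in 22.9% and 26.6% of 5260 cases. With limma-voom on the recovered reads, an alternative added after the data were seen, 5 of these 8 were called higher, 2 lower and 1 (KRTAP19-5) did not pass, against 20.2% higher and 24.5% lower among rows of the same kind and 31.5% higher and 38.4% lower among all 16410 rows. KRT17, KRT34, KRT37 and KRT80 reached 30 reads only through the carfilzomib libraries, so their direction was built into this cutoff. The remaining 9 members had 7 to 24 reads over the 6 libraries and at most 14 in any 1 library. In 4 of them, named after their values were seen (KRT7, KRT14, KRT81 and KRTAP1-5), FPKM did not overlap, each being higher with carfilzomib, and in 5 it overlapped, against 18.7% higher and 8.51% lower among rows with under 30 reads. For KRT7 and KRT14, however, the lowest carfilzomib library and the highest DMSO library both had 1 read, so only the library totals set them apart.

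KRT14, the type I keratin of basal epidermis, had 1, 2 and 4 reads with carfilzomib and 0, 1 and 0 with DMSO. KRT81, a type II hair keratin whose transcript is 96.6% identical to that of KRT86 over 1325 aligned bases, had 1, 1 and 5 reads with carfilzomib and 0 in all DMSO libraries. KRTAP1-5 had 11, 1 and 4 reads with carfilzomib and 0 in all DMSO libraries. These 3 genes were read in every carfilzomib library, but with as little as 1 read. KRTAP4-1 had 8, 1 and 5 reads with carfilzomib and 1, 7 and 0 with DMSO. On chromosome 21, KRTAP19-1 had 6, 0 and 0 reads with carfilzomib and 5, 1 and 1 with DMSO, and KRTAP19-2 had 0, 1 and 0 with carfilzomib and 6, 1 and 0 with DMSO. No difference was detectable for these last 3 genes at this depth.

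**Figure D3:**
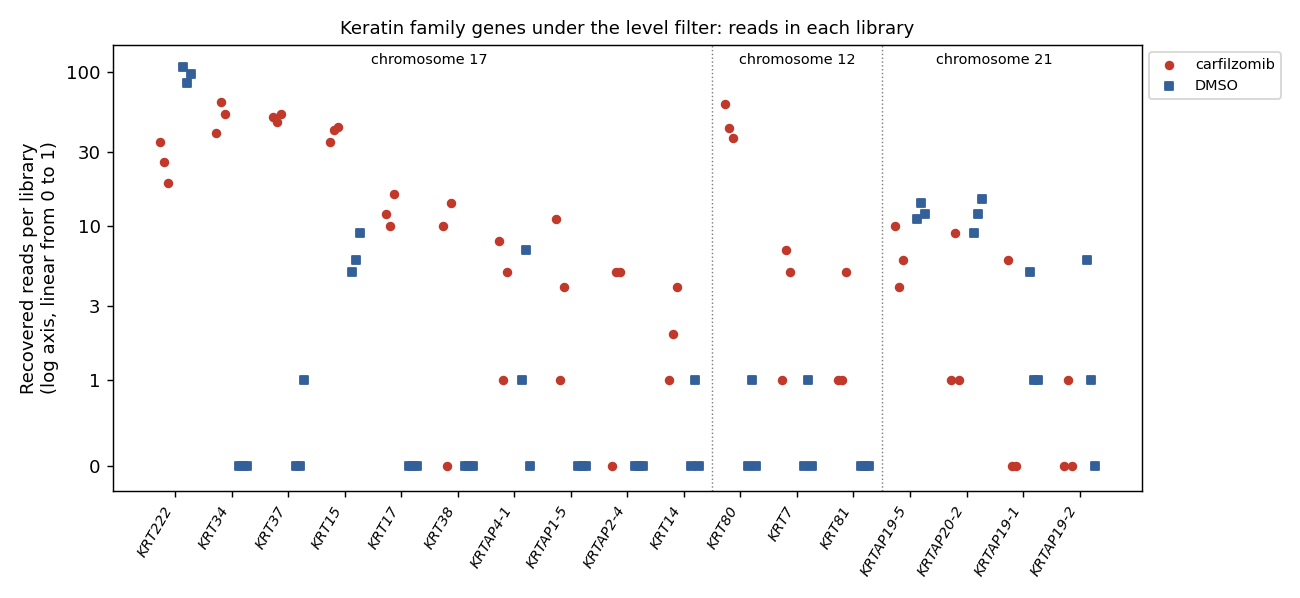
Recovered reads per library of the 17 members under the level filter, ordered by chromosome and total reads (red circles, carfilzomib; blue squares, DMSO; log axis, linear from 0 to 1). KRT34, KRT37, KRT17 and KRT80 have at least 10 reads in each carfilzomib library and at most 1 in each DMSO library, and KRT222 is the member whose DMSO reads (85 to 107) lie clearly above.

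The members fall on 3 chromosomes. On chromosome 17, which holds the type I keratins other than KRT18 and a set of keratin-associated proteins, 11 of 15 members were higher without overlap, 1 was lower (KRT222) and 3 overlapped. On chromosome 12, home of the type II keratins and KRT18, 4 of 5 were higher and KRT8 overlapped. On chromosome 21, 0 of 5 were higher, 2 were lower and 3 overlapped. The shares of all rows were 30.8% higher and 35.2% lower. The higher members include KRT14 and KRTAP1-5 on chromosome 17 and KRT7 and KRT81 on chromosome 12, whose lowest carfilzomib library had 1 read. For KRT7 and KRT14 a DMSO library had 1 read as well, so only the library totals set the groups apart. Summed over genes, the 5 keratin-associated protein members of chromosome 17 had 729 reads with carfilzomib and 8 with DMSO, while the 5 of chromosome 21 had 54 with carfilzomib and 145 with DMSO. Of the 729 reads, KRTAP2-3 held 382 and KRTAP3-1 held 307, and both genes passed the level filter through the carfilzomib libraries alone. KRTAP1-5, KRTAP4-1 and KRTAP2-4 had 16, 14 and 10, so the chromosome 17 sum does not describe all 5 genes. Neighbours of the chromosome 17 cluster moved both ways. On one side TOP2A and SMARCE1 fell and IGFBP4 rose, and on the other EIF1 rose and JUP and P3H4 fell. Inside the cluster, higher members were spread over its length, with KRTAP3-1 and KRTAP2-3 apart from KRT34 and KRT37 and many genes without a row between them.

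**Figure D4:**
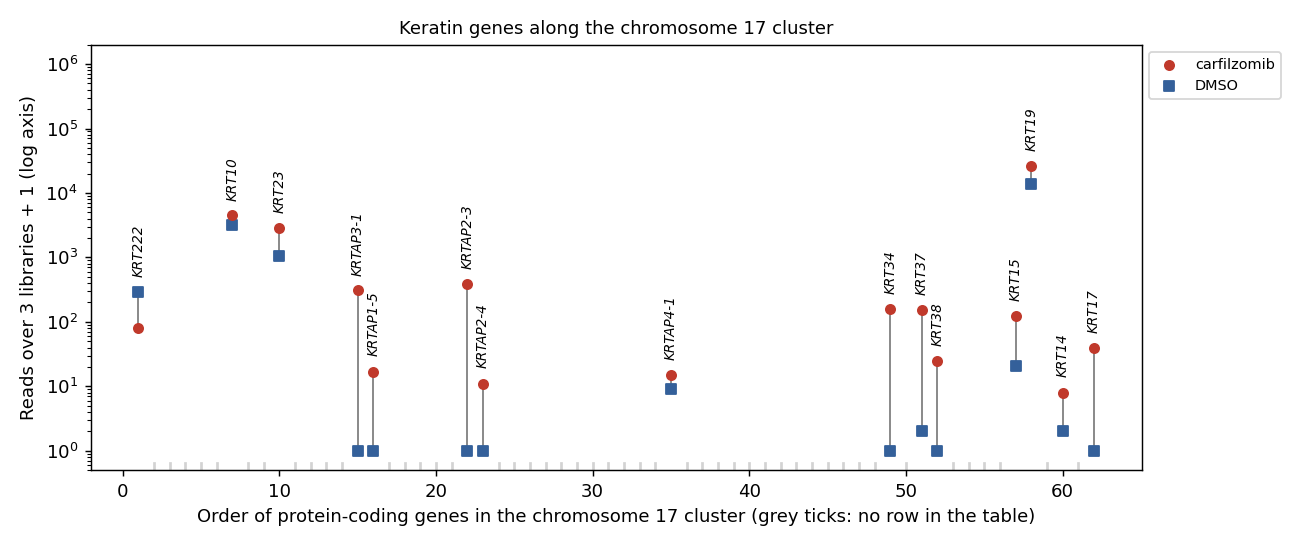
Reads summed over the 3 libraries of a group, plus 1, for the 15 chromosome 17 members in their order along the cluster (red circles, carfilzomib; blue squares, DMSO; log axis; grey ticks mark the 47 keratin family genes with no row). Members with 0 DMSO reads lie in several places along the cluster, and KRT222, at the left end, is lower with carfilzomib.

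Genes that work with keratins were read in the same fit, from lists drawn up with earlier results of these data known. In the same fit, these counts stand against 36.7% higher, 44.9% lower and 81.6% called among all tested genes, whose median log2 difference was -0.07. Desmosomes and plakins tie keratin filaments to the membrane and to other filaments. Of 26 such genes, 18 were tested, 6 rose, 8 fell and 4 did not pass, with a median log2 difference of -0.03, so the list lay close to the shares of all genes. The cross-linkers PLEC (plectin) and DST (dystonin) rose, PLEC to 19.5 ± 1.11 FPKM with carfilzomib, against 9.09 ± 0.0959 with DMSO, and DST to 26.5 ± 1.35, against 12.5 ± 0.333 (SD, n = 3 each; log2 difference 1.02 for each). The desmosomal cadherin DSG2 (log2 difference 0.56) and periplakin PPL (0.48) rose as well. In contrast JUP (plakoglobin) fell to 39.8 ± 0.861 FPKM with carfilzomib, against 80.5 ± 2.77 with DMSO, and the keratin-anchoring DSP (desmoplakin) to 22.6 ± 0.783, against 35.8 ± 1.03. LAD1 and PKP4 were the others among the 4 largest falls, at log2 differences of -1.12 and -0.87.

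Other intermediate filament genes changed in both directions. All 6 tested of 15 were called, 3 higher and 3 lower, where 81.6% of all tested genes were called. VIM, vimentin of mesenchymal cells and many cultured lines, rose to 428 ± 12.8 FPKM with carfilzomib, against 140 ± 1.46 with DMSO, but stayed below KRT8 and KRT18 in level. LMNA, the A-type nuclear lamin, and NES, nestin, rose (log2 differences 0.95 and 0.77). LMNB1, a B-type lamin, fell to 7.86 ± 0.388 FPKM with carfilzomib, against 37.4 ± 0.806 with DMSO, and LMNB2 and SYNM, synemin, both fell by 0.45 on the log2 scale. Cornified envelope genes, the late products of skin differentiation, were mostly without a row: of 30, 8 had one and 2 were tested. Neither passed, CSTA at 4.02 ± 0.473 FPKM with carfilzomib and 4.55 ± 0.360 with DMSO, and S100A9 at 59.5 ± 7.49 with carfilzomib and 59.7 ± 4.23 with DMSO (adjusted p = 0.112 and 0.92 by limma). The other 6 had too low a level to test, and 3 of them, named after their values were seen, did not overlap between the groups. Among all rows under the filter with at least 30 reads, 22.9% were higher and 26.6% lower without overlap. With under 30 reads the shares were 18.7% and 8.51%, so 3 of 6 is not unusual. SCEL, sciellin, had 24, 5 and 38 reads with carfilzomib and 0, 1 and 1 with DMSO, and SPRR2D, a small proline-rich protein gene, had 3, 5 and 6 with carfilzomib and 0 in all DMSO libraries. S100A8, the partner of S100A9, had 2, 0 and 0 reads with carfilzomib and 21, 13 and 9 with DMSO.

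Components of Mallory-Denk bodies other than the 2 keratins were called higher, by unequal amounts. All 10 tested were called higher, against 36.7% of all tested genes, with a median log2 difference of 1.78. TGM2, named after its values were seen, was barely higher. It had 68.8 ± 2.09 FPKM with carfilzomib and 65.0 ± 0.786 with DMSO (SD, n = 3 each), a log2 difference of 0.08 (adjusted p = 0.0364 by limma). The largest differences included those of HSPA1A and HSPA1B, near-identical inducible HSP70 genes, and of CRYAB, a small heat shock protein that binds intermediate filaments, with log2 differences of 7.27, 6.30 and 5.42. Many of these are general heat shock genes, and of the 2 keratins KRT18 rose 1.54 times while KRT8 did not pass on the deposited scale. CRYAB averaged 0.869 FPKM with DMSO and passed the level filter only through the carfilzomib libraries, so its difference was built into the filter.

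Transcription factors known to act on keratin genes gave 10 higher, 6 lower and 1 not passed of 17 tested, with 27 in the list, against 36.7% higher and 44.9% lower among all tested genes. The largest rises were in the AP-1 subunits FOSL1, FOS and FOSB (log2 differences 4.93, 2.23 and 2.22) and in TP63, the p53 relative that keeps basal epidermis, which had 3.67 ± 0.223 FPKM with carfilzomib and 0.352 ± 0.0727 with DMSO. FOSL1, FOS and FOSB averaged 0.868, 0.830 and 0.458 FPKM with DMSO. Like TP63 they passed the level filter only through the carfilzomib libraries, so their difference was built into the filter. The count of 10 higher includes them. TP63 is also among the 12 markers of stratified epithelium, of which 3 were tested, TP63 and SFN rose and DSG3 did not pass. CEBPA, a hepatocyte factor, GRHL1, an epidermal factor, SP1 and POU2F1 had the largest falls (log2 differences -1.86, -1.38, -0.47 and -0.45). The part of these factors and markers in the keratin values was not tested.

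**Figure D5:**
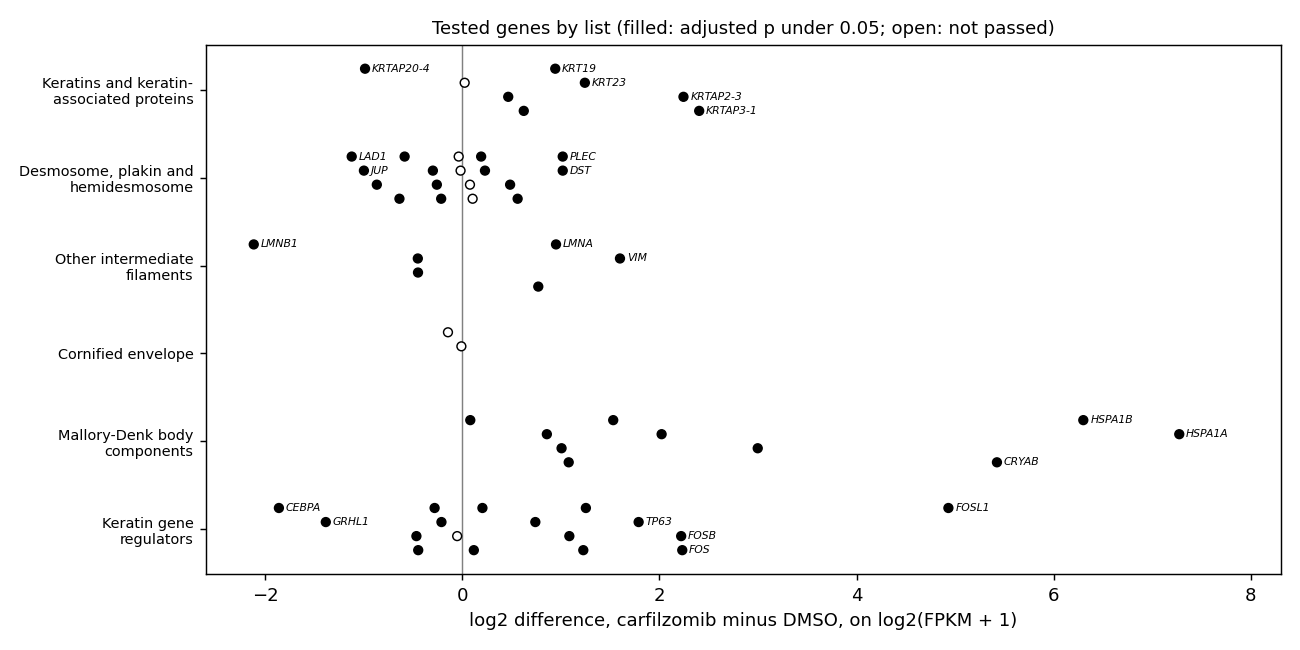
Log2 difference, carfilzomib minus DMSO on log2(FPKM + 1), of each tested gene in the keratin family and in 5 lists of related genes (filled, adjusted p under 0.05 by limma; open, not passed). Desmosome and plakin genes lie on both sides of 0, all 10 Mallory-Denk body components lie above it, and the 2 cornified envelope genes are open.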

How the data were processed

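RNA sequencing of 6 Huh7 libraries was deposited as 1 table of FPKM values, which the authors scaled by gene length and library total. Tools listed in the submitters' processing notes, with no role or order, are HISAT2, HTSeq, fastp, DESeq2 and R 3.2.0, and the build listed is GRCm39, a mouse build. In the table, the gene lengths behind all 10 keratin-associated protein rows equal the lengths of those genes in human RefSeq. Per the labels' protocols, TruSeq Stranded mRNA chemistry was used. Groups came from the sample titles.

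Whole reads and library totals were recovered from the ratios of FPKM values between libraries (relative tolerance 1e-12); 19018 of 19021 rows came out whole, taking the shortest length that fits. The test was limma 3.58.1 in R 4.3.3 (eBayes with trend) on log2(FPKM + 1), two-sided, over the 11153 rows averaging 1 FPKM or more, with calls at an adjusted p under 0.05. Differences on this scale understate the change of low genes. Members under the filter are given by reads, and a DMSO group at 0 was set to 3 reads for ratios. The fit and the recovery were tested on simulated data. Named were all members past the filter, those with at least 30 reads, and up to 4 genes per list and direction (2 by level where none was called). The members and lists were chosen with earlier results of these data known. Alternatives were pseudocounts of 0.1 and 5, no filter or 5 FPKM, 3 scalings, a replicate block, limma without trend or robust, each library left out, and limma-voom on recovered reads (added after the data were seen). Between libraries of 1 group, chi-square per degree of freedom was 3.69 to 7.07, above counting noise. Values of some genes on the lists are not reported here.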

Additional observations from a re-analysis of the deposited data

How the results depend on the processing

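Of 133 combinations of a tested member and an alternative, 131 kept the direction and the side of the threshold, and the 2 others were the KRT8 calls with median-of-ratios scaling and with TPM given above. The 133 include 16 each for KRTAP2-3, KRTAP3-1 and KRTAP20-4. Their difference was built into the filter, so their unchanged calls are no support. The member counts were 6 higher and 1 lower. Without a filter they were 11 higher and 4 lower, more rows being tested, and with a mean of at least 5 FPKM 4 higher and 0 lower, since KRTAP2-3, KRTAP3-1 and KRTAP20-4 were no longer tested. That filter also left 3246 of all genes lower, fewer genes being tested. With limma-voom on recovered reads, which changes the model and the rows tested, 11 members were higher and 3 lower, and with TPM, which changes the scaling and the rows tested, 8 were higher and 4 lower. The limma-voom count includes members that reached 30 reads through the carfilzomib libraries alone. S100A9, without a call, changed sign with median-of-ratios scaling (0.081) and TPM (0.030) and without DMSO replicate 1 or carfilzomib replicate 2, its range with any 1 library left out being -0.073 to 0.097; the cause was not tested. The type I over type II difference was 0.45 to 0.47 with any 1 library left out, 0.42 with quantile normalization and 0.35 with summed reads. Libraries with the same number did not deviate together (correlations of -0.0121, -0.00341 and 0.0126), so the numbers do not pair them; with the replicate as a block, 6 members were higher and 1 lower, as were 4059 and 4995 of all genes. Depth limits the 9 members with under 30 reads.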
